A study of Mus musculus with 12 samples.

Results

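The CCN family of matricellular genes was followed in sorted aortic smooth muscle cells (SMCs). Its 6 members, *Ccn1* to *Ccn6* (formerly *Cyr61*, *Ctgf*, *Nov*, *Wisp1*, *Wisp2*, and *Wisp3*), were found by their Ensembl identifiers among the 52636 genes of the count table, and 5 of the 6 had enough counts to be tested with 22320 genes. Bulk RNA-seq was done on viable cells of male C57BL/6J mice 12 weeks of age, sorted for GFP after enzyme digestion in the cold. Each genotype had 3 replicates, each with 1 library from the ascending/arch segment and 1 from the descending thoracic segment. Libraries of a genotype with the same replicate number were taken as 1 mouse. GFPiSMC mice carried Myh11-CreERT2 and the mT/mG reporter with unmodified TGF-β receptor genes, and Tgfbr1/2iSMCKO mice carried these alleles with floxed *Tgfbr1* and *Tgfbr2*. Both genotypes therefore had Cre, the reporter, and 5 days of tamoxifen. The labels name 2 schedules without assigning them to libraries, and the study's methods give the one for mature mice, 2 mg/d started at 11 weeks of age, for cells profiled a week later. *Myh11* drives Cre in SMCs and the transgene lies on the Y chromosome, so only males could be used, and only cells with recombination of the reporter entered the libraries. The mouse line and the deletion cannot be told apart in this design.

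CCN proteins are secreted, cysteine-rich regulators that sit between the extracellular matrix and the cell surface. Most are built from an IGFBP-like module, a von Willebrand factor type C repeat, a thrombospondin repeat, and a C-terminal cystine knot, and they act mainly by binding integrins, proteoglycans, and growth factors. *Ccn1* and *Ccn2* are known as rapidly induced targets of YAP/TAZ with TEAD factors, *Ccn2* also as a target of TGF-β and Smad signaling, *Ccn3* and *Ccn5* as members that restrain SMC growth, and *Ccn4* as a Wnt-responsive gene.

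A short run was compared between members in the part of the coding sequence that encodes the IGFBP-like module. The longest coding transcript of every member in GENCODE M21 held 1 in-frame run of 24 bases with TGC or TGT codons at 4 shared places. The search looked for these 4 places and the opening GG, so both are shared by construction. Whether genes outside the family hold such runs was not tested. The runs are shown to compare the bases between these places, and capitals mark the TGC and TGT codons.
*Ccn1*, coding bases 145 to 168: ggcTGCggcTGCTGTaaggtcTGC
*Ccn2*, coding bases 154 to 177: ggcTGCggcTGCTGCcgcgtcTGC
*Ccn3*, coding bases 160 to 183: ggcTGCtccTGCTGTccggtgTGC
*Ccn4*, coding bases 214 to 237: ggcTGTgaaTGCTGTaagataTGT
*Ccn5*, coding bases 145 to 168: ggcTGTggcTGCTGTcgagtgTGT
*Ccn6*, coding bases 211 to 234: ggcTGTggaTGCTGCaaagtcTGT

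Between pairs of members, 14 to 20 of these 24 bases were identical, with 20 for *Ccn1* and *Ccn2*. These numbers include the bases fixed by the search. The coding sequence measured 1140 bases in *Ccn1*, 1047 in *Ccn2*, 1065 in *Ccn3* and *Ccn6*, and 1104 in *Ccn4*, but 756 in *Ccn5*, the member that lacks the cystine knot. No stretch of 31 bases in any of these transcripts occurred in a transcript of another member, so the members share no long sequence that could move reads from one to another.

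The genes are dispersed in the mouse genome (GRCm38). *Ccn1* lies at chr3:145646976-145649981 on the minus strand and *Ccn5* at chr2:163820861-163833146 on the plus strand. *Ccn3* (chr15:54745702-54754039) and *Ccn4* (chr15:66891320-66923201), both on the plus strand, share a chromosome but lie 12137280 bases apart. *Ccn2* (chr10:24595442-24598683, plus strand) and *Ccn6* (chr10:39150970-39163794, minus strand) lie 14552286 bases apart. *Ccn2* is overlapped by the antisense transcript *Gm15270*, and *Ccn6* overlaps *Tube1*. The library kit does not mark the strand, so reads in an overlap cannot be assigned to either gene with certainty.

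Total counts ranged from 25007747 to 31392396 in GFPiSMC and from 20467027 to 30354994 in Tgfbr1/2iSMCKO libraries. Levels are given as CPM, counts brought to a common library size with TMM scaling, or as RPKM, which is CPM per kilobase of exon, where members are compared with each other. "Called" stands for an adjusted p under 0.05 together with a difference beyond 2-fold. The 7 smooth muscle markers summed to 33863 to 47783 CPM in every library, against 12.4 to 107 CPM for 7 fibroblast markers, 55.0 to 106 CPM for 7 endothelial markers, and 6.03 to 14.8 CPM for 7 macrophage markers, all as sums. *Tgfbr1* had 196 to 292 CPM in GFPiSMC and 198 to 295 CPM in Tgfbr1/2iSMCKO, and *Tgfbr2* had 88.9 to 128 CPM and 68.2 to 102 CPM. Neither receptor gene passed the test over the 12 libraries (log2 fold change 0.10, edgeR adjusted p = 0.790, and −0.26, adjusted p = 0.233). *Tgfbr2* had an unadjusted edgeR p of 0.0304, and 16.1% of all genes were under 0.05. Within each segment its Tgfbr1/2iSMCKO libraries lay below the GFPiSMC ones, and those of *Tgfbr1* lay above in the descending segment. Such separation held for 19% of all genes in the ascending/arch and 14.9% in the descending segment. Counts of whole genes do not separate floxed exons from the rest, so they do not check the deletion. Of the 7 endothelial markers, 6 were on the higher side in Tgfbr1/2iSMCKO (median log2 fold change 0.79), and *Cdh5*, which encodes VE-cadherin, was called higher (2.97, SE 0.70, edgeR adjusted p = 0.0250) at 0 to 0.513 CPM in GFPiSMC and 0.497 to 2.71 CPM in Tgfbr1/2iSMCKO. *Pecam1* made up most of the endothelial sum and had −0.13 (adjusted p = 0.800). The part of these markers in the genotype differences was not tested.

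*Ccn2* was the most abundant member in every GFPiSMC library and *Ccn3* in every Tgfbr1/2iSMCKO library. In GFPiSMC ascending/arch cells, the mean RPKM was 1974 ± 178 (SD, n = 3) for *Ccn2*, 431 ± 48.4 for *Ccn3*, 248 ± 149 for *Ccn1*, 54.8 ± 2.60 for *Ccn5*, and 1.12 ± 0.853 for *Ccn4*. In descending cells of the same mice it was 1951 ± 607 for *Ccn2*, 622 ± 527 for *Ccn1*, 311 ± 16.9 for *Ccn3*, 114 ± 37.6 for *Ccn5*, and 3.28 ± 0.557 for *Ccn4*. There the libraries of *Ccn1* overlapped those of both *Ccn3* and *Ccn5*, so the order of these neighbors was not resolved. In Tgfbr1/2iSMCKO the ascending/arch order was *Ccn3* at 469 ± 58.3, *Ccn1* at 120 ± 141, *Ccn2* at 39.8 ± 29.0, *Ccn5* at 7.96 ± 3.38, and *Ccn4* at 2.34 ± 0.288 RPKM. In the descending segment *Ccn3* had 251 ± 28.1, *Ccn1* 86.8 ± 72.5, *Ccn2* 34.3 ± 28.4, *Ccn5* 21.0 ± 8.32, and *Ccn4* 3.97 ± 1.34 RPKM. *Ccn1* and *Ccn2* overlapped in both segments of Tgfbr1/2iSMCKO and *Ccn2* and *Ccn5* in the descending segment, although *Ccn1* was above *Ccn2* within each of the 6 libraries.

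As a share of the summed family RPKM, *Ccn2* made up 73.0% ± 2.12 and 66.6% ± 6.31 (SD, n = 3 each) in GFPiSMC ascending/arch and descending cells, 5.79% ± 2.42 in Tgfbr1/2iSMCKO ascending/arch cells, and 2.83% to 12.5% in the 3 descending libraries of that genotype. *Ccn3* took 16.1% ± 2.96 and 11.6% ± 5.14 in GFPiSMC and 76.9% ± 15.2 and 65.2% ± 12.3 in Tgfbr1/2iSMCKO. The summed family RPKM itself was 2709 ± 279 and 3001 ± 1168 in GFPiSMC and 639 ± 221 and 397 ± 110 in Tgfbr1/2iSMCKO. The larger share of *Ccn3* thus stood beside a smaller family total and a nearly equal *Ccn3* level, given below. The ratio of *Ccn2* to *Ccn3* RPKM ran from 3.87 to 8.15 in GFPiSMC libraries and from 0.0373 to 0.242 in Tgfbr1/2iSMCKO libraries. All members together accounted for 0.513% to 0.992% of the counts of a GFPiSMC library and 0.0901% to 0.234% of a Tgfbr1/2iSMCKO library.

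**Figure D1:**
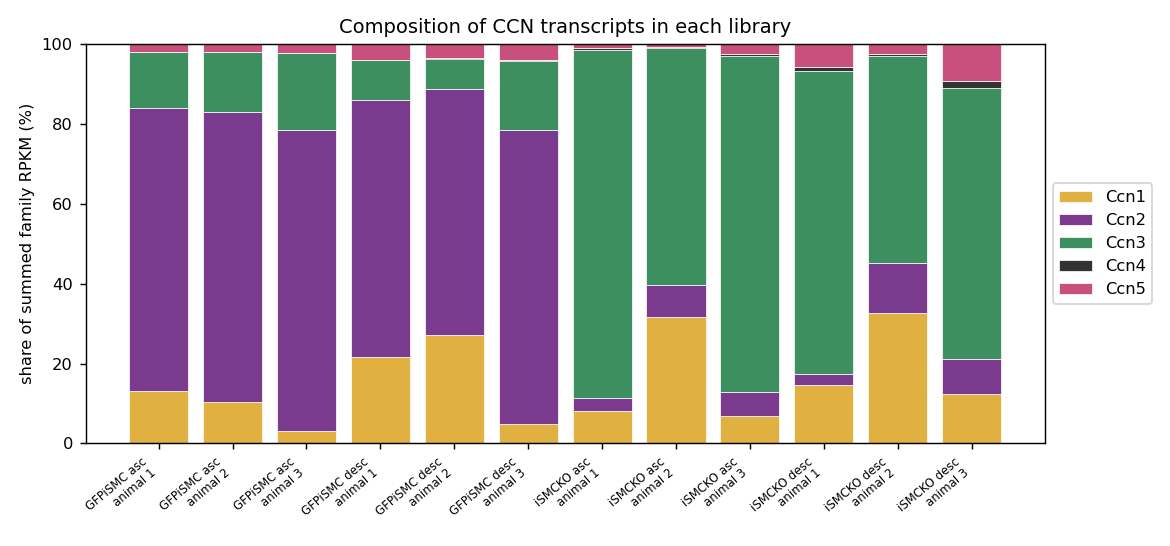
Share of each member in the summed RPKM of the CCN family (percent, vertical axis) in each of the 12 libraries (horizontal axis), with 1 color per member and *Ccn6* left out. *Ccn2* fills 61.5% to 75.2% of the GFPiSMC bars and 2.83% to 12.5% of the Tgfbr1/2iSMCKO bars, and *Ccn3* fills 51.8% to 87.0% of the latter.

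The main comparison asked which members differed when SMCs had lost both TGF-β receptors. Over the 12 libraries, with segment in the model, 2 of the 5 tested members were called, both lower in Tgfbr1/2iSMCKO, against a background of 2.67% of all genes tested called in either direction. The 2 genes were *Ccn2* and *Ccn5*. These were also the members whose 6 and 6 libraries did not overlap, which held for 4.39% of all genes. Over all genes, 366 were called lower and 230 higher, with a median log2 fold change of 0.04. With library size as the only scaling these counts were 296 and 321 and the median was 0.16.

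**Figure D2:**
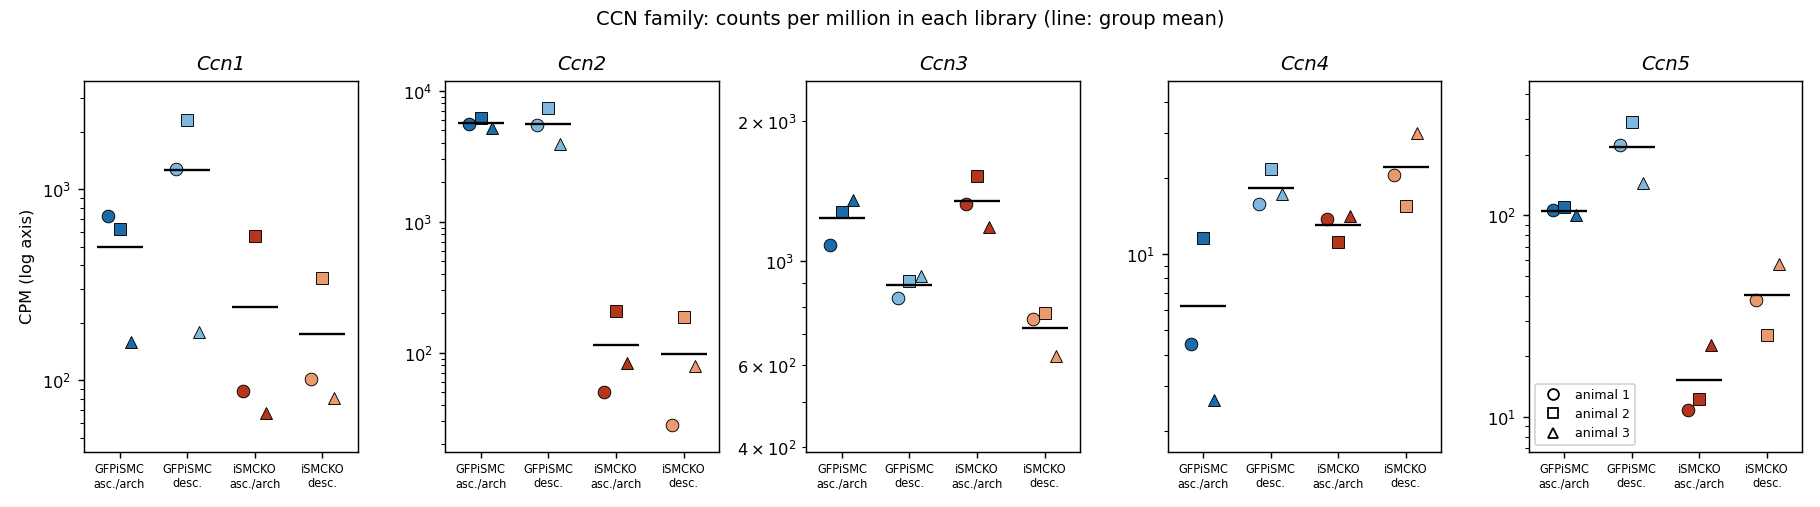
CPM on log axes for *Ccn1* to *Ccn5* in each library, by genotype and segment (horizontal axis), with a symbol for each animal and a line at the group mean. Each panel has its own vertical scale. The Tgfbr1/2iSMCKO symbols lie below all GFPiSMC symbols for *Ccn2* and *Ccn5*, whereas the ranges of the genotypes overlap for *Ccn1*, *Ccn3*, and *Ccn4*.

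*Ccn2* encodes connective tissue growth factor, which binds integrins and promotes matrix production. In GFPiSMC replicates 1, 2, and 3 it had 5529, 6208, and 5209 CPM in the ascending/arch segment and 5439, 7387, and 3923 CPM in the descending segment. In Tgfbr1/2iSMCKO replicates 1, 2, and 3 it had 50.3, 208, and 83.5 CPM in the ascending/arch segment and 28.1, 187, and 79.2 CPM in the descending segment. The groups were far apart, and among the Tgfbr1/2iSMCKO mice replicate 2 was the highest in both segments. Over the 12 libraries *Ccn2* fell 53.1-fold (log2 fold change −5.73, SE 0.48, adjusted p = 7.8e-06 by the edgeR quasi-likelihood test). With counts summed per animal, the log2 fold change was −5.72 (edgeR adjusted p = 0.00263). The decrease was of like size in the ascending/arch (log2 fold change −5.63, SE 0.71, edgeR adjusted p = 0.00121) and in the descending segment (−5.83, SE 0.71, adjusted p = 0.00102), and leaving out any animal kept the 12-library value between −6.54 and −5.33. In a bulk library, fewer cells that express a gene and less RNA per cell cannot be told apart.

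The antisense transcript *Gm15270* was lower as well, with 262 to 717 CPM in GFPiSMC and 15.5 to 27.0 CPM in Tgfbr1/2iSMCKO libraries (log2 fold change −4.37, SE 0.25, edgeR adjusted p = 2.12e-07). Since the strand was not recorded, how much of this signal comes from *Ccn2* reads was not tested.

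*Ccn5* encodes a member without the cystine knot that is known in SMCs for limiting proliferation and migration. Its values in GFPiSMC replicates 1, 2, and 3 were 106, 110, and 100 CPM in the ascending/arch and 222, 289, and 145 CPM in the descending segment. The Tgfbr1/2iSMCKO replicates had 10.8, 12.4, and 22.8 CPM in the ascending/arch and 38.2, 25.6, and 57.4 CPM in the descending segment. All Tgfbr1/2iSMCKO libraries were below all GFPiSMC libraries, and in both genotypes each descending library was above every ascending/arch library. *Ccn5* fell 6.10-fold over the 12 libraries (log2 fold change −2.61, SE 0.25, edgeR adjusted p = 2.9e-05). With counts summed per animal, the log2 fold change was −2.53 (edgeR adjusted p = 0.00655). In the ascending/arch the difference was −2.78 (SE 0.36, edgeR adjusted p = 0.00163) and in the descending segment −2.44 (SE 0.36, adjusted p = 0.00383). Unlike *Ccn2*, *Ccn5* was highest in replicate 3 of the Tgfbr1/2iSMCKO mice in both segments.

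*Ccn1* encodes CYR61, an integrin ligand that is induced quickly by serum, growth factors, and mechanical load. GFPiSMC replicates 1, 2, and 3 had 724, 617, and 158 CPM in the ascending/arch and 1282, 2308, and 179 CPM in the descending segment. Tgfbr1/2iSMCKO replicates had 87.7, 569, and 67.7 CPM in the ascending/arch and 101, 344, and 80.4 CPM in the descending segment. The genotypes overlapped, because replicate 3 was low in both segments of GFPiSMC and replicate 2 was high in both segments of Tgfbr1/2iSMCKO. The log2 fold change over the 12 libraries was −1.95 (SE 0.74) and did not pass the test (edgeR adjusted p = 0.189). Without Tgfbr1/2iSMCKO replicate 2 it was −3.21 with an adjusted p of 0.0179, and without any other single animal it lay between −2.48 and −1.49 with an adjusted p of 0.0889 to 0.508. By segment, values were −1.05 (SE 0.96, adjusted p = 0.773) in the ascending/arch and −2.84 (SE 1.02, adjusted p = 0.280) in the descending segment. As single animals were left out these values ran from −2.68 (without Tgfbr1/2iSMCKO replicate 2) to −0.62 (without Tgfbr1/2iSMCKO replicate 3) and from −3.79 (without Tgfbr1/2iSMCKO replicate 2) to −2.06 (without GFPiSMC replicate 2), and none passed the test.

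The promoter window of *Ccn1* (RefSeq, GRCm38.p6, chr3:145649936-145650235, minus strand, 250 bases before to 50 after the start) is shown because *Ccn1* overlapped between genotypes while its known regulators have short recognition sequences. Capitals mark, in order, the TEAD core GGAATG read on the opposite strand, the cyclic AMP response element core TGACG on the opposite strand, the TATA box TATAAA, and the SMAD box CAGAC.
*Ccn1* window: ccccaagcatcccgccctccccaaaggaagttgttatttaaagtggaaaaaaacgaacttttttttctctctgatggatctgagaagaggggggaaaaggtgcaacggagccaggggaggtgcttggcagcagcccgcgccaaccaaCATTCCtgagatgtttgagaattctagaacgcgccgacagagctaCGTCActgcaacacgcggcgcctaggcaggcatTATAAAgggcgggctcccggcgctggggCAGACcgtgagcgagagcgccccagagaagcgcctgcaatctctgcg

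Counted from the start, the TEAD match lies at −103 to −98, the TGACG match at −58 to −54, the TATA box at −25 to −20, and the SMAD box at 4 to 8. Searched on both strands, these letters occur in 14.7%, 20.8%, 13.6%, and 49.6% of 32851 promoter windows of the same length. The AP-1 site TGANTCA and the CArG box bound by serum response factor had no match in this window and occur in 7.81% and 1.63% of windows. *Ccn6* was the other member with a window in the table, and its window held TGACG once and CAGAC at 2 places but no TEAD core and no TATA box. A match is a matter of letters and does not show that a factor binds.

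*Ccn3* encodes NOV, an integrin-binding member known for restraining SMC growth. It had 1082, 1278, and 1351 CPM in GFPiSMC ascending/arch, 836, 909, and 928 CPM in GFPiSMC descending, 1330, 1521, and 1188 CPM in Tgfbr1/2iSMCKO ascending/arch, and 754, 776, and 627 CPM in Tgfbr1/2iSMCKO descending libraries. The genotypes overlapped in the ascending/arch, and in the descending segment all 3 Tgfbr1/2iSMCKO libraries were below the GFPiSMC libraries. The genotype log2 fold change was −0.09 (SE 0.11, edgeR adjusted p = 0.794) over the 12 libraries, and 0.03 with library size as the only scaling. By segment it was 0.12 (SE 0.14, adjusted p = 0.833) in the ascending/arch and −0.31 (SE 0.14, adjusted p = 0.437) in the descending segment. The coefficient of variation of CPM within a group was 5.44% to 12.4% for *Ccn3*, against 4.74% to 42.5% for *Ccn5* and 60.2% to 118% for *Ccn1*. For *Ccn2* it was 9.03% to 82.8%, with the higher values in Tgfbr1/2iSMCKO, and for *Ccn4* 12.3% to 76.4%.

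*Ccn4* encodes WISP1 and was scarce in these cells. It had 4.40, 11.6, and 2.64 CPM in GFPiSMC ascending/arch, 15.7, 21.7, and 17.3 CPM in GFPiSMC descending, 13.7, 11.2, and 14.1 CPM in Tgfbr1/2iSMCKO ascending/arch, and 20.5, 15.5, and 30.2 CPM in Tgfbr1/2iSMCKO descending libraries. The genotypes overlapped in both segments. Its log2 fold change of 0.67 (SE 0.32) over the 12 libraries did not pass the test (edgeR adjusted p = 0.343), nor did 1.06 (SE 0.45, adjusted p = 0.388) in the ascending/arch or 0.28 (SE 0.44, adjusted p = 0.948) in the descending segment. The ascending/arch value was 1.88 (adjusted p = 0.0681) without GFPiSMC replicate 2 and 0.71 (adjusted p = 0.730) without GFPiSMC replicate 3, and the 12-library value was 1.10 (adjusted p = 0.133) without GFPiSMC replicate 2.

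*Ccn6*, the member least known in vascular cells, was essentially not detected. It had 2 counts in GFPiSMC replicate 2 of the ascending/arch segment and 0 counts in each of the other 11 libraries. A count of 0 allows up to 3 counts, which is 0.0956 to 0.147 CPM depending on the library and covers counting error only. No fold change is given.

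Within each segment taken alone, the same 2 members were called lower in Tgfbr1/2iSMCKO, *Ccn2* and *Ccn5*, where 1.15% of all genes were called in the ascending/arch and 1.42% in the descending segment. Libraries did not overlap for 2 members in the ascending/arch, where this held for 19% of all genes, and for 3 members, *Ccn3* included, in the descending segment, where it held for 14.9%. With 3 libraries against 3, an exact permutation test of a single gene cannot give a two-sided p below 0.1, so separation within a segment carries little weight.

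Whether the genotype effect differed between the segments was tested directly. No member was called by edgeR or DESeq2, with 1 at an unadjusted edgeR p under 0.05. Of all genes 0% were called by edgeR, with 659 (2.95%) at an unadjusted p under 0.05 and 8 (0.0359%) called by DESeq2. The difference of the log2 fold changes, descending minus ascending/arch, was −0.20 (SE 0.82) for *Ccn2*, 0.35 (SE 0.48) for *Ccn5*, −0.78 (SE 0.63) for *Ccn4*, and −1.79 (SE 1.36) for *Ccn1*. For *Ccn3* it was −0.43 (SE 0.19), with an unadjusted edgeR p of 0.0464 and an adjusted p of 1.00. The errors of *Ccn1*, *Ccn2*, *Ccn4*, and *Ccn5* leave room for differences of more than 2-fold that were not detectable here.

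**Figure D3:**
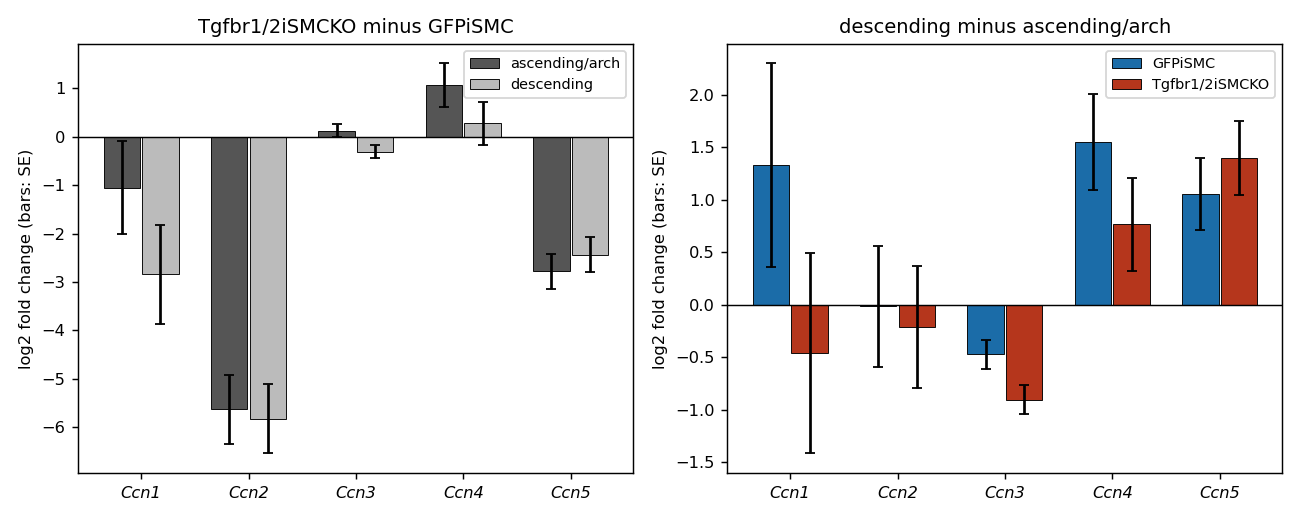
Log2 fold changes of *Ccn1* to *Ccn5* with their SE (vertical axes). The left panel gives Tgfbr1/2iSMCKO minus GFPiSMC in each segment, with *Ccn2* near −5.63 and −5.83, and the right panel gives descending minus ascending/arch in each genotype, with *Ccn3* below 0 and *Ccn4* and *Ccn5* above 0 in both genotypes.

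The segments themselves were compared next. In GFPiSMC, 3 members had descending libraries that did not overlap the ascending/arch ones (13% of all genes), *Ccn3* lower and *Ccn4* and *Ccn5* higher in the descending segment. The same held for the same 3 members in Tgfbr1/2iSMCKO, where 7.24% of all genes were separated. No member was called by edgeR within either genotype, where 0.372% and 0.108% of all genes were called. At an unadjusted p under 0.05 there were 3 members in GFPiSMC and 2 in Tgfbr1/2iSMCKO, against 5.98% and 3.68% of all genes. DESeq2 called 0 and 1, the latter *Ccn5* (adjusted p = 0.0281), against 1.39% and 0.771% of the genes to which it gave an adjusted p. In GFPiSMC the differences on the log2 scale were −0.47 (SE 0.14, adjusted p = 0.363) for *Ccn3*, 1.55 (SE 0.46, adjusted p = 0.372) for *Ccn4*, and 1.05 (SE 0.34, adjusted p = 0.525) for *Ccn5* by edgeR. In Tgfbr1/2iSMCKO they were −0.90 (SE 0.14) for *Ccn3*, 0.77 (SE 0.45) for *Ccn4*, and 1.40 (SE 0.35) for *Ccn5*, of which *Ccn3* had an adjusted p of 0.0316 with a change of less than 2-fold and the others 1 and 0.319 by edgeR. That p for *Ccn3* rose to between 0.0525 and 0.365 when any 1 of the 6 animals was left out, and to 0.106 with genes of low counts removed.

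Over both genotypes, the segment term of the 12-library fit called 1 member, *Ccn5*, where 0.694% of all genes were called. *Ccn5* was 2.33-fold higher in the descending segment (log2 fold change 1.22, SE 0.24, edgeR adjusted p = 0.0298). The call was lost without GFPiSMC replicate 1, 2, or 3 (adjusted p = 0.187, 0.155, and 0.0615) and without Tgfbr1/2iSMCKO replicate 1 or 2 (adjusted p = 0.140 and 0.0522), while the log2 fold change stayed between 1.13 and 1.33. *Ccn3* was 1.61-fold lower in the descending segment (log2 fold change −0.69, SE 0.11, edgeR adjusted p = 0.00780), short of the 2-fold needed for a call, and its adjusted p was 0.0679 without Tgfbr1/2iSMCKO replicate 1. *Ccn4* was not called by edgeR (log2 fold change 1.16, SE 0.33, adjusted p = 0.227) but was by DESeq2 (adjusted p = 0.0278), which called 1.38% of genes here. The 6 descending and 6 ascending/arch libraries did not overlap for *Ccn3* and *Ccn4*, which held for 0.811% of all genes. *Ccn1* (0.44, SE 0.73) and *Ccn2* (−0.11, SE 0.39) overlapped.

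Most fibroblast markers moved with the segment and were also higher where *Ccn3* was higher. Of the 7 markers, 6 were tested, and over both genotypes all 6 were on the lower side in the descending segment. Of these 2 were called, *Lum* (log2 fold change −4.30, SE 0.44, edgeR adjusted p = 0.000344) and *Scara5* (−2.02, SE 0.36, adjusted p = 0.0162). Within GFPiSMC all 6 were lower, and within Tgfbr1/2iSMCKO 5 were, where the highest log2 fold change was 0.63. The summed level of the 7 markers was 67.0 to 82.3 CPM in GFPiSMC ascending/arch and 12.4 to 15.3 CPM in GFPiSMC descending libraries, and 45.7 to 107 CPM and 12.4 to 20.9 CPM in Tgfbr1/2iSMCKO. *Lum* had 19.6 to 69.8 CPM in the ascending/arch libraries against at most 3.93 CPM in the descending ones. The defining marker *Pdgfra* had 11.9 to 15.7 CPM in the ascending/arch and 7.08 to 10.1 CPM in the descending libraries of GFPiSMC. In Tgfbr1/2iSMCKO it had 15.8 to 21.7 CPM and 7.67 to 12.3 CPM. *Dpt*, also a defining marker, had 0 to 4.46 CPM over all libraries. The part of these markers in the *Ccn3* difference was not tested.

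Cell-surface partners of CCN proteins were then examined in a list of 17 receptors and binding proteins, of which 16 were tested. Over the 12 libraries 5 had an adjusted p under 0.05, all 5 lower in Tgfbr1/2iSMCKO, where 5.03% of all genes passed that threshold and 3.23% were lower. Of these 1 was called, against 1.64% of all genes called lower. The called gene was *Itgb5*, an integrin β chain that pairs with αv, with 213 to 450 CPM in GFPiSMC and 96.6 to 179 CPM in Tgfbr1/2iSMCKO libraries (log2 fold change −1.07, SE 0.20, edgeR adjusted p = 0.00609). *Itgb3*, which also pairs with αv, differed by −0.88 on the log2 scale (SE 0.17, adjusted p = 0.00684), and *Itgb1*, the most abundant integrin chain of the list, by −0.48 (SE 0.074, adjusted p = 0.00150). The coreceptors *Sdc4*, a heparan sulfate proteoglycan, and *Lrp6*, a Wnt coreceptor, had −0.64 (adjusted p = 0.00234) and −0.50 (adjusted p = 0.00612). The median of the list was −0.49 against 0.04 for all genes. *Itgav*, the α chain that binds several CCN proteins, stood at 128 and 167 CPM in Tgfbr1/2iSMCKO descending replicates 1 and 3 and at 10.3 to 21.9 CPM in the other 10 libraries, and did not pass the test (adjusted p = 0.363). The origin of these high *Itgav* values was not tested.

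The regulators through which *Ccn1* and *Ccn2* are usually transcribed showed no called change. None of the 12 genes *Yap1*, *Wwtr1*, *Tead1* to *Tead4*, *Srf*, *Mrtfa*, *Mrtfb*, and *Smad2* to *Smad4* had an adjusted p under 0.05 by edgeR, with 1 gene at an unadjusted p under 0.05 and 0 called by DESeq2, and their median log2 fold change was 0.04. *Wwtr1*, which encodes TAZ, had 113 to 162 CPM in GFPiSMC and 82.2 to 138 CPM in Tgfbr1/2iSMCKO libraries. *Yap1* was listed at 0.482 CPM in GFPiSMC descending replicate 3, while the other 5 GFPiSMC libraries had 61.0 to 70.5 CPM. In Tgfbr1/2iSMCKO it had 12.0 CPM in ascending/arch replicate 1 and 40.9 to 67.9 CPM in the other 5 libraries. How the authors turned StringTie output into counts is not known here. Whether the low *Yap1* values of single libraries or the high *Itgav* values arose in that step was not tested.

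Among 20 further YAP and TAZ target genes, 19 were tested, 6 had an adjusted p under 0.05, all 6 lower in Tgfbr1/2iSMCKO, and 3 were called, against 3.23% and 1.64% of all genes in that direction. *Ankrd1*, a cardiac and muscle ankyrin repeat protein, had 37.6 to 68.2 CPM in GFPiSMC and 5.05 to 30.3 CPM in Tgfbr1/2iSMCKO libraries (log2 fold change −1.74, SE 0.38, edgeR adjusted p = 0.0155). As for *Ccn2*, Tgfbr1/2iSMCKO replicate 2 was the highest of its genotype in both segments. *Fjx1* (−1.38, SE 0.19, adjusted p = 0.000530) and the YAP-inhibiting kinase *Lats2* (−1.01, SE 0.12, adjusted p = 0.000162) were also called, and the list had a median of −0.29. In the descending segment alone 1 gene of the list was called lower and 1 higher, where 1.42% of all genes were called in either direction. There *F3* had 23.1 to 27.6 CPM in GFPiSMC and 49.7 to 58.5 CPM in Tgfbr1/2iSMCKO libraries. Among TGF-β target genes, *Pmepa1*, a feedback inhibitor of Smad signaling, was called lower (−3.23, SE 0.11, edgeR adjusted p = 1.5e-09), with 289 to 374 CPM in GFPiSMC and 29.6 to 38.3 CPM in Tgfbr1/2iSMCKO libraries that did not overlap.

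Of 10 Wnt and β-catenin target genes, relevant to *Ccn4* and *Ccn5*, 8 were tested and 1 was called higher, where 1.03% of all genes were. This was *Nkd2* (log2 fold change 2.04, SE 0.42, edgeR adjusted p = 0.0107). It was scarce, with 0.343 to 1.40 CPM in GFPiSMC and 1.65 to 7.02 CPM in Tgfbr1/2iSMCKO. *Axin2*, the usual readout of this pathway, had at most 2.45 CPM in GFPiSMC and at most 3.49 CPM in Tgfbr1/2iSMCKO (adjusted p = 0.250).

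*Ccn1* belongs by its kinetics to the immediate early genes, so a list of 17 other such genes was set beside it. None was called between genotypes or had an adjusted p under 0.05 by edgeR, while 8 had an unadjusted p under 0.05 (16.1% of all genes) and DESeq2 called 4 (4.69% of the genes to which it gave an adjusted p). On the log2 scale 13 of the 17 were on the lower side in Tgfbr1/2iSMCKO, and the median log2 fold change was −0.68. Several of them showed the low and high animals of *Ccn1*. *Fos*, a component of AP-1, had 163, 93.1, and 18.2 CPM in GFPiSMC ascending/arch and 199, 222, and 21.7 CPM in GFPiSMC descending replicates 1, 2, and 3, so replicate 3 was low in both segments. In Tgfbr1/2iSMCKO it had 60.3, 80.0, and 18.1 CPM and 49.0, 63.5, and 16.0 CPM, with replicate 2 the highest in both segments. *Atf3*, a stress-induced transcription factor, had 480 and 285 CPM in the libraries of Tgfbr1/2iSMCKO replicate 2 and 19.6 to 38.9 CPM in the other 4 libraries of that genotype. The part of this animal pattern in the *Ccn1* values was not tested.

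After removal of the 4 group means, Pearson's r of log2 CPM with *Ccn1* over the 12 libraries had a median of 0.684 across the 17 genes and ranged from −0.139 for *Egr2* to 0.924 for *Btg2*. It was 0.874 for *Fos*, 0.905 for *Nr4a1*, and 0.828 for *Atf3*. The 12 libraries come from 6 animals, and libraries of an animal are not independent, so these values are descriptions. For *Ccn2* the median over the same 17 genes was 0.366, for *Ccn3* 0.279, and for *Ccn5* −0.217. *Ccn1* and *Ccn2* had r = 0.674 with each other after removal of the group means, whereas *Ccn5* had −0.0676 with *Ccn2* and a value near 0 with *Ccn1*.

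**Figure D4:**
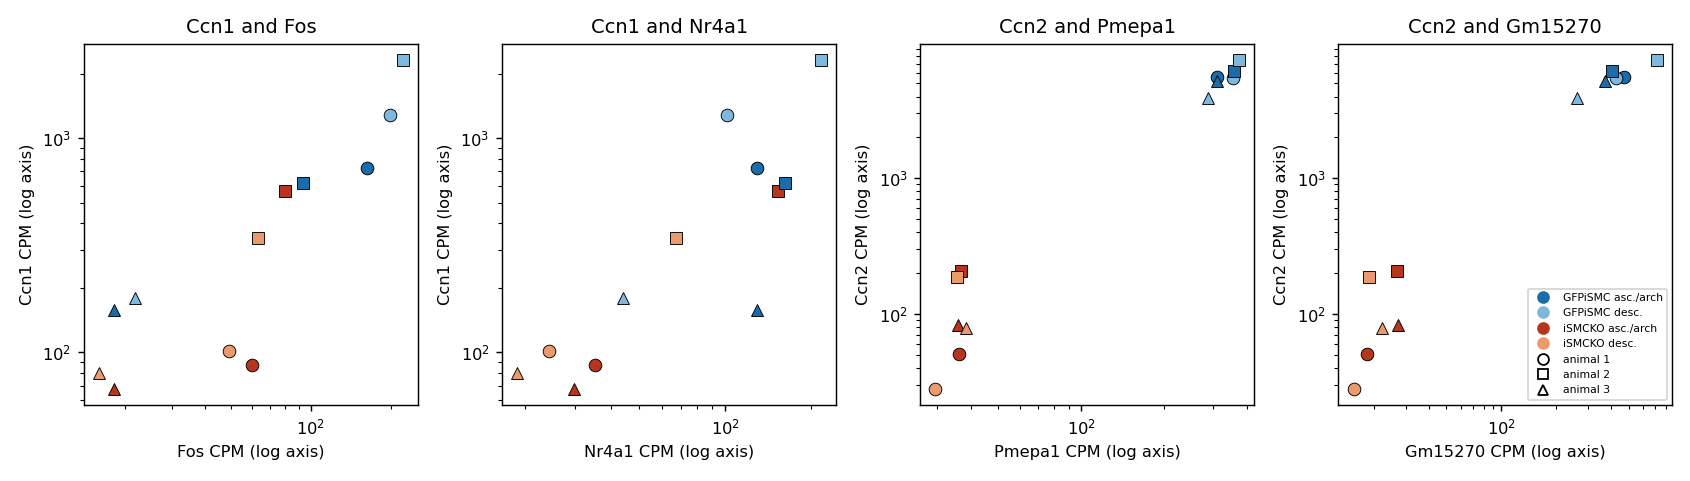
CPM of *Ccn1* against *Fos* and *Nr4a1* and of *Ccn2* against *Pmepa1* and the antisense transcript *Gm15270* in each of the 12 libraries (both axes logarithmic, color for genotype and segment, symbol for animal). In *Ccn1* both libraries of GFPiSMC replicate 3 lie among the Tgfbr1/2iSMCKO libraries, while *Ccn2* forms a high and a low group that match the genotypes.

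The genes most like each abundant member were ranked by Pearson's r of log2 CPM over the 12 libraries among 11135 genes. For *Ccn2* these were *Fam198b* (0.981), *Cltc* (0.981), *Col4a5* (0.980), *Gm15270* (0.979), and *Pmepa1* (0.979). For *Ccn5* they were *Nid1* (0.979), *Pnldc1* (0.974), *Phf2* (0.973), *Fibin* (0.966), and *Atp10a* (0.963). For *Ccn1* they were *Ier3* (0.923), *Gm48529* (0.908), *Eif1* (0.891), *Gm20481* (0.883), and *Rhob* (0.878). For *Ccn3* they were *5033428I22Rik* (0.960), *Hand2* (0.955), *Hand2os1* (0.952), *Lum* (0.947), and *Npy1r* (0.932). With group means removed, *Ccn2* was most like *Rnd3* (0.945), *Lats1* (0.932), *Spty2d1* (0.931), *Ankrd1* (0.919), and *Lurap1* (0.916). The highest values of the other members were 0.991 for *Ccn5* (*Ehd2*), 0.990 for *Ccn3* (*Slc25a17*), and 0.939 for *Ccn1* (*Vkorc1l1*). All of these are the highest of 11135 values over 12 libraries, and how high r would rise by chance was not tested. The genotype and segment differences enter the values that were not corrected for group means. The shared libraries and animals enter the corrected values as well.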

How the data were processed

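Per the labels and the study's methods, the authors trimmed reads with Trim Galore, aligned them with HISAT2 to GRCm38, and quantified GENCODE M15 genes with StringTie. The deposited values are whole-number counts per gene without normalization, and the step from StringTie coverage to counts is not given in the sources used here. Symbols and positions came from GENCODE M21 (52403 of 52636 genes), and counts without a symbol were 0.151% of the total.

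Counts were tested with the edgeR 4.0.16 quasi-likelihood test (R 4.3.3) after filterByExpr on the 4 groups, with TMM factors and Benjamini-Hochberg adjustment over 22320 genes. Every adjusted p comes from this fit across all genes unless DESeq2 1.42.0 or an alternative is named. Each alternative, including each animal left out, was fitted anew, with adjustment over its own set of tested genes. The 12-library model had segment and genotype, and other contrasts used 4 group means. Neither model has a term for the animal, so the libraries of an animal were treated as independent. The segment term over 12 libraries was chosen after seeing the data. SEs were taken as log2 fold change / √F. Correlations used log2 CPM with a prior count of 2. Apart from the receptor genes, genes that overlap a member, and the genes ranked by r, other genes come from fixed lists. Named were list members past the thresholds over the 12 libraries outside the TGF-β target list. Further list members were chosen after their values were seen. The members and lists were chosen with earlier results of these data known. Within a genotype, 2 libraries with 1 replicate number were treated as 1 animal, an assumption drawn from the numbers in the sample titles. With group means removed, the correlation of an animal's libraries over 9210 genes was 0.187, −0.242, and 0.0240 in GFPiSMC and 0.0612, 0.377, and 0.661 in Tgfbr1/2iSMCKO. Figures were drawn with matplotlib 3.10.9. Alternatives were RLE or library size scaling, other count filters, DESeq2, limma-voom with animal as a random effect, counts summed per animal, replicate blocks, and each animal left out. The TGF-β target list is not reported in full here.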

Additional observations from a re-analysis of the deposited data

How the results depend on the processing

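Over all alternatives, 422 of the values of single members kept their direction and side of the threshold, 14 fell short of it, 4 newly passed it, and 5 reversed. The calls of *Ccn2* and *Ccn5* over the 12 libraries held under every alternative run. The reversed values were small: the genotype log2 fold change of *Ccn3* was 0.030 with library size as the only scaling, that of *Ccn4* in the descending segment was −0.036 to 0.48 as animals were left out, the segment difference of *Ccn2* in GFPiSMC was −0.20 to 0.13 (0.0078 without replicate 1), and that of *Ccn1* in Tgfbr1/2iSMCKO was −0.59 to 0.23. The cause was not tested. With each segment fitted alone, 239 genes were called in the ascending/arch and 148 in the descending segment, and adding a replicate block for the replicate number, which only shares numbers between genotypes, gave 104 and 14. The members called in the descending segment were then 1, since *Ccn5* had an adjusted p of 0.194 with that block and 0.0224 without it. Over the 12 libraries the same replicate block brought *Ccn1* past the threshold, with an edgeR adjusted p of 0.0168. That fit, like the main one, treats the libraries of an animal as independent, while counts summed per animal gave 0.377. The animal as a replicate block in the segment comparisons changed no call of a member.

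Counts summed per animal gave 380 genes called between genotypes in place of 596. DESeq2 called 604 genes in the ascending/arch in place of 257, 635 in the descending segment in place of 317, 8 for the difference between segments in place of 0, 256 and 145 between segments in GFPiSMC and Tgfbr1/2iSMCKO in place of 83 and 24, and 265 between segments over the 12 libraries in place of 155, with 1 member called in Tgfbr1/2iSMCKO (*Ccn5*, adjusted p = 0.0281) and 2 over the 12 libraries (*Ccn4* and *Ccn5*). With no filter beyond 1 count, 1 gene was called for the difference and 46 between segments in Tgfbr1/2iSMCKO. On leaving out single animals, the genes called ranged from 120 to 206 in the ascending/arch, from 131 to 283 in the descending segment, from 0 to 3 for the difference, from 6 to 85 and from 5 to 19 between segments in GFPiSMC and Tgfbr1/2iSMCKO, and from 76 to 131 over the 12 libraries, where the members called ranged from 0 to 1. Groups reduced to 2 libraries in this way were fitted with the spread pooled over groups. Depth limits *Ccn6*, which had 0 counts in 11 libraries.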
